A study of Mus musculus with 16 samples.

Results

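Brown adipose tissue of mouse pups at postnatal day 4 (P4) was compared here with the same tissue at the flanking ages, embryonic day 18 (E18) and postnatal day 10 (P10). The samples were taken from the array titles: 4 P4 arrays against 3 E18 and 3 P10 arrays pooled, so 10 of the 16 arrays of a time course that went on to 4 and 8 weeks of age (4W and 8W, 3 arrays each). All mice were of strain C57BL6/N, with no treatment or genetic change in the labels, and the tissue was taken whole. Its total RNA was extracted with ISOGEN, labelled with Cy3 and measured on Agilent 1-colour arrays. Whether each array is a separate animal or a pool is not in the labels, nor is the sex. A gene was reported when all 4 P4 arrays lay above, or all below, the 6 flanking arrays. This asks which genes passed through a high or a low point in the first postnatal days instead of following a steady course from birth to the second week.

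Brown adipocytes release heat by uncoupling mitochondrial respiration through Ucp1. Cold drives noradrenaline from sympathetic nerves onto beta-adrenergic receptors, cAMP rises in the adipocyte, and lipolysis and genes such as Dio2 and Ppargc1a are switched on. Newborn rodents leave the warmth of the uterus with little insulation and rely on this tissue for heat while it is still growing.

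The arrays differed in brightness and in markers other than age. Between 67.6% and 67.8% of spots were well above background at E18, 52.2% to 59.2% at P4 and 60.2% to 72.4% at P10. The number of arrays limits the precision. The median gene varied by an SD of 0.07 (log2) between E18 arrays, 0.12 between P4 arrays and 0.13 between P10 arrays. Copies of a probe on the same array varied by 0.06 to 0.08, so the p-values rest on the spread between these samples alone, and that spread may be technical. Xist, the RNA of the inactive X chromosome, was at 10.28 to 10.39 (log2 signal) at P10 and at 2.76 to 2.80 at P4, and at E18 it was at 3.60, 6.01 and 6.74. The Y-linked Ddx3y was at 11.69 to 11.79 at P4 and at 2.76 to 3.09 at P10. It was at 11.44 to 11.50 at E18 and at 11.27 to 11.64 at 4W and 8W, so it was low at P10 alone. Sex and age therefore cannot be told apart between P4 and P10. X- and Y-linked genes were left out of every count (83 of 591 above and 60 below), which does not remove autosomal genes that differ by sex. Slide 1 held the E18 arrays with P4 replicates 2 to 4 and P10 replicates 2 and 3, and the other slide held P4 replicate 1, P10 replicate 1 and all 4W and 8W arrays. Differences between P4 and the later ages therefore set 3 P4 arrays on one slide against arrays on the other. Sarcomere genes, the contractile machinery of striated muscle, were far lower at P4 than at both flanks and are described apart at the end.

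Of 15650 autosomal genes, 2268 (14.5%) were above all 6 flanking arrays at P4 and past limma's test against E18 and against P10, at a Benjamini-Hochberg adjusted p of 0.05 in each. Below all 6 and past both tests were 2346 genes (15.0%). These shares are the background for the lists described here. Where a count is given under another scaling of the scanner signal, its background differs. It is 7.37% above and 7.51% below under median scaling, and 15.0% above and 13.9% below under 75th percentile scaling. Part of a lower count under median scaling is therefore general, but lists differed in how far they fell. Of genes below, the respiratory chain list went from 20 to 1 of 44 and the interferon list from 19 to 15 of 22. By position alone, without the tests, 2595 genes (16.6%) were above and 2612 (16.7%) below. Most of the departures were small. The median gene above was 0.40 (log2) above the nearer of both ages and the median gene below was 0.45 below it. At least 2-fold from both ages were 216 genes above (1.38%) and 367 below (2.35%). At the edge of the rule, Fhit was above by 0.00025 and Kif13a below by 6e-05, whereas Lamtor3 and Aurkaip1 tied with a flanking array and were left out. Against the mean of both flanking ages, 4152 genes (26.5%) were higher at P4 and 4750 (30.4%) lower by limma. The median over all genes was -0.04 for P4 minus E18, -0.03 for P4 minus P10 and -0.04 for P4 minus the mean of both. Scaling the scanner signal by each array's median instead of quantile normalization left 1153 genes above and 1176 below, of which 1104 and 1132 were also called with the deposited values.

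Most of these genes did not return to the P4 level later. Of the 2268 genes above, 1740 (76.7%) had all 6 of the 4W and 8W arrays below the P4 arrays, against 26.6% of all genes. Of the 2346 genes below, 1671 (71.2%) had them above, against 25.2% of all genes. The later arrays had to lie beyond every P4 array, including P4 replicate 1 on their own slide. The P4 arrays enter both sides of this description, so it was not tested.

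Dio2 and Ppargc1a, which stand at the centre of the thermogenic response, had their highest level of all 5 ages at P4. Below, folds and ± standard errors (SE) of log2 differences come from the limma fit over all genes, and levels are log2 signals. Dio2, which converts thyroxine to the active hormone within the cell, was at 13.29, 13.34, 13.10 and 13.29 on the P4 arrays. It was at 10.01, 10.09 and 10.01 at E18 and at 10.33, 10.31 and 10.33 at P10. The groups did not overlap, and the P4 level was 9.29-fold above E18 (log2 3.22 ± 0.06, limma adjusted p = 1.6e-13) and 7.62-fold above P10 (log2 2.93 ± 0.06, limma adjusted p = 4.2e-13). Ppargc1a, a transcriptional coactivator of mitochondrial biogenesis, was at 15.51, 15.48, 15.48 and 15.51 at P4. At E18 it was at 12.31, 12.35 and 12.31, and at P10 at 12.79, 12.79 and 12.84. All P4 arrays of Ppargc1a lay 9.0-fold above E18 (log2 3.17 ± 0.04) and 6.44-fold above P10 (log2 2.69 ± 0.04). At 4W and 8W its means were 12.19 and 11.34, and those of Dio2 10.97 and 7.41.

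The RefSeq promoter of Dio2 is shown because its level at P4 is among the farthest from the flanks and because it holds the full cAMP response element TGACGTCA. The sequence below is the 250 bases before the Dio2 start at chr12:90739039-90739288 on the minus strand of GRCm38.p6, written 5′ to 3′. Capitals mark the element, whose first base lies 95 bases before the start.
Dio2: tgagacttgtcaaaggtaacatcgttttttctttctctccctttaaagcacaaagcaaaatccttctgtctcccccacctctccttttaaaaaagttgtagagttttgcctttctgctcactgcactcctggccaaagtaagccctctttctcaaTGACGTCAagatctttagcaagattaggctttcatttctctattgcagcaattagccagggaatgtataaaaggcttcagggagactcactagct
This palindromic element, the site bound by the CREB family, was present in 1.79% of the 32851 promoter windows of 300 bases in the RefSeq table (250 before to 50 after the start). Of the 15650 genes, 12393 matched a window, and 3.11% of these held it. It was in 100 of the 1824 matched genes above all 6 (5.48%) and in 47 of the 1859 below (2.53%). Of the 12 genes farthest above both flanks, named further on, 9 matched a window and only Dio2 held the element. Maff, a small Maf transcription factor, and Peg3, an imprinted zinc finger gene, were also above at P4. Their windows were chosen because they hold the element too. The Maff sequence is chr15:79347270-79347519 (plus strand, first base of the element 29 before the start) and the Peg3 sequence chr7:6730420-6730669 (minus strand, 178 before the start).
Maff: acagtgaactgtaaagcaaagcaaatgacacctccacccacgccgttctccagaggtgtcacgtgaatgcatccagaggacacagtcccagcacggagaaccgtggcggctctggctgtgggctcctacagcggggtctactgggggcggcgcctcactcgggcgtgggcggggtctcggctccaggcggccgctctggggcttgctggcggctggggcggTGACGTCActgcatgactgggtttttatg
Peg3: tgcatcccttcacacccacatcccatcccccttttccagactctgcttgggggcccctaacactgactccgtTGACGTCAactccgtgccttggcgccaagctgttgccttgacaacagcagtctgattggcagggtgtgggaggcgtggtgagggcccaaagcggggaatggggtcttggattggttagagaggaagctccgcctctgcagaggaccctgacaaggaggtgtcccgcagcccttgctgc
The E-box CACGTG was in 10.4% of matched genes, 14.7% of those above and 9.47% of those below. The Nr4a element AAAGGTCA was in 1.33%, 1.26% and 1.45% of the same sets, so its share was about equal in each. Both strands were searched, and a match in a window describes the letters and not binding.

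Other thermogenic genes did not move together with Dio2 and Ppargc1a. Of 25 measured members, 5 were above all 6 flanking arrays (20.0%) and 6 below (24.0%), and the median difference from the mean of both flanks was -0.02. Under median scaling 2 were above and 4 below. Ucp1 itself was not called: it was at 18.73, 18.78, 18.78 and 18.80 at P4, at 18.29, 18.29 and 18.23 at E18 and at 18.52, 18.70 and 18.70 at P10. Its P4 arrays were all the highest, 1.41-fold above E18 (limma adjusted p = 1.9e-05), but the difference from P10 of 0.13 ± 0.06 missed the test (limma adjusted p = 0.11). Prdm16, a regulator of brown fat identity, was 1.23-fold above E18 and 1.42-fold above P10, a call lost under median scaling. Below at P4 were Pank1, which starts coenzyme A synthesis, at 10.17 to 10.20 against 11.14 to 11.22 at E18 and 12.03 to 12.22 at P10, and Letm1, a protein of the inner mitochondrial membrane, 1.68-fold below E18 and 1.64-fold below P10. Letm1 lost its call when the probes of a gene were averaged. Eva1b was 1.45-fold and 1.64-fold below. The potassium channel gene Kcnk3, at 12.79 to 12.80 on all P4 arrays, was 1.39-fold and 1.50-fold below E18 and P10. Cox7a1, a cytochrome oxidase subunit, was only 1.08-fold below E18 and 1.18-fold below P10, and this call did not hold under either scaling of the scanner signal or with normexp. The lipid droplet protein Cidea (-0.14 ± 0.07 against E18, -0.11 ± 0.07 against P10) did not pass either test, and Elovl3, a fatty acid elongase, lay between the flanks at 6.39 to 6.89.

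The adrenergic and cAMP list split by member. Of 28 measured genes 7 were above (25.0%) and 6 below (21.4%), with a median difference of 0.07, and under median scaling 5 were above and 3 below. Among the receptors, Adrb1 was at 11.12 to 11.37 at P4 against 10.14 to 10.17 at E18 and 10.20 to 10.34 at P10, 2.13-fold and 1.96-fold higher. Adrb3, the main beta receptor of adipocytes, was 1.82-fold above E18 and 1.38-fold above P10, a call lost under median scaling, and at 4W and 8W its means of 14.60 and 14.99 were higher than at P4.

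The adenylyl cyclases, which make cAMP, also diverged. Adcy3 was at 9.76, 9.64, 9.54 and 9.70 at P4, at 5.88, 5.12 and 4.52 at E18 and at 7.91, 7.54 and 7.42 at P10. That is 22.3-fold above E18 (log2 4.48 ± 0.23, limma adjusted p = 3.2e-09) and 4.09-fold above P10 (log2 2.03 ± 0.23, limma adjusted p = 5.7e-06), although the 4W mean of 9.89 was as high. With normexp Adcy3 kept its call but fell from 9.56-fold to 4.74-fold above the mean of both flanks. Adcy5 was 2.22-fold above E18 and 5.07-fold above P10. Adcy9 ran the other way, 1.73-fold and 2.60-fold below. Pde4d, a phosphodiesterase that breaks cAMP down, was 2.90-fold and 1.89-fold above. Rgs2, a brake on G protein signalling, had the largest difference among the members below. It was at 13.21, 13.16, 13.20 and 13.16 at P4 against 15.31, 15.29 and 15.29 at E18 and 16.16, 16.40 and 16.44 at P10. Its means at 4W and 8W were 15.89 and 16.84. Crtc3, a CREB coactivator, was 1.23-fold and 1.34-fold below, a call lost under median scaling and with averaged probes.

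**Figure D1:**
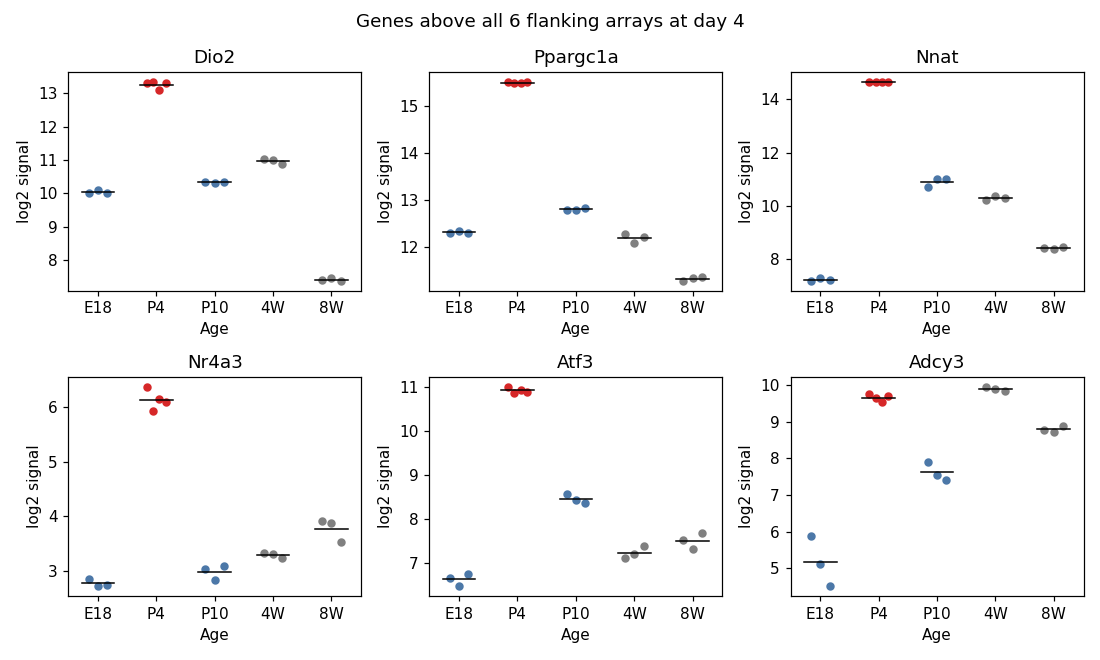
Log2 signal of 6 genes (vertical axis) on each array by age (horizontal axis), with P4 in red, the flanking ages E18 and P10 in blue, later ages in grey and a bar at each mean. The P4 points lie above all E18 and P10 points in every panel, and Adcy3 at 4W is as high as at P4.

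The 12 genes farthest above both flanks were Mfsd2a, Nnat, Nr4a3, Ces2h, Dio2, Pde6a, Chst8, Ppargc1a, Prmt6, Nrg2, Fa2h and Atf3. Nnat, which is imprinted and encodes a small proteolipid of membranes, was at 14.64, 14.65, 14.63 and 14.64 at P4. It was at 7.20, 7.29 and 7.23 at E18 and at 10.71, 11.01 and 11.02 at P10. Nnat was thus 169-fold above E18 (log2 7.40 ± 0.07, limma adjusted p = 4.4e-16) and 13.2-fold above P10 (log2 3.73 ± 0.07, limma adjusted p = 2.5e-13). Mfsd2a, a transporter of lysophospholipids, was at 7.85, 7.66, 8.08 and 7.57 at P4, and it was not well above background on any E18 or P10 array. Its P4 level was at least 15.7-fold above E18, and the P10 arrays lay at 4.72, 3.50 and 3.45. For such a bound, each dim array enters at its own value or, where that is lower, at the lowest value of any probe well above background on it. Mfsd2a came back at 4W, with a mean of 7.82. Nr4a3, an orphan nuclear receptor induced by cAMP, was at 6.36, 5.92, 6.14 and 6.08 at P4, at least 4.96-fold above E18 and at least 3.80-fold above P10. Ces2h, a carboxylesterase gene, was well above background on 3 of 4 P4 arrays and on no flanking array, at least 4.65-fold above E18 and at least 3.56-fold above P10.

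Atf3, a stress-induced transcription factor, was at 11.00, 10.87, 10.93 and 10.89 at P4, at 6.68, 6.49 and 6.75 at E18 and at 8.58, 8.45 and 8.36 at P10. It was 19.5-fold above E18 (log2 4.29 ± 0.09, limma adjusted p = 1.2e-12) and 5.52-fold above P10 (log2 2.47 ± 0.09, limma adjusted p = 1.8e-10). Pde6a, the phosphodiesterase subunit known from rod photoreceptors, was at 8.90 to 8.95 at P4 against 5.82 to 6.14 and 4.95 to 5.32. Chst8, a sulfotransferase, was 7.45-fold above E18 and 12.8-fold above P10. The arginine methyltransferase Prmt6 was at 9.67 to 9.83 at P4 and at no more than 7.45 on a flanking array, a difference of 6.91-fold and 6.30-fold. Nrg2, a ligand of ErbB receptors, was 6.05-fold above E18 and at least 9.04-fold above P10. Fa2h, which hydroxylates fatty acids of sphingolipids, was at least 20.6-fold above E18 and 5.91-fold above P10. Mfsd2a, Nr4a3 and Ces2h entered the fit through their P4 arrays alone, since a probe had to be well above background on at least 3 of the 10 arrays. The filter for probes above background on all 10 arrays left them out, and Pde6a too, so it says nothing about these genes. A filter on spots marked as outliers also left out Nr4a3. Under the alternatives that could be run on them, all 12 kept their call, but not their size. Prmt6 was 6.6-fold above the mean of both flanks with the probe used here and 1.78-fold with its probes averaged. With normexp and its offset of 50, which compresses dim signals, 7 of the 12 moved by more than 1.5 times: Mfsd2a fell from 18.2-fold to 3.31-fold above that mean, Nr4a3 from 9.47-fold to 1.95-fold and Ces2h from 8.89-fold to 1.82-fold, and Fa2h, Nrg2, Pde6a and Chst8 came to between 2.36-fold and 4.76-fold.

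Immediate early and stress-induced transcription factors were more often above than below. Of 28 measured, 10 were above (35.7%) and 2 below (7.14%), with a median difference of 0.40 against -0.04 for all genes. The counts were 10 and 0 under median scaling. All members of the Nr4a family were above E18, but not all were above P10. Nr4a2 was at 11.17, 11.06, 11.03 and 11.09 at P4 against 9.39 to 9.42 at E18 and 9.56 to 9.76 at P10, 3.20-fold and 2.71-fold higher. Nr4a1 was not called: its P4 arrays at 13.36 to 13.54 overlapped the P10 arrays at 13.34 to 13.38, and only the 4.49-fold difference from E18 passed (limma adjusted p = 6.5e-13). Maff was at 9.87, 9.84, 9.87 and 9.79 at P4, 2.94-fold above E18 and 5.80-fold above P10. The other 16 members, among them Fos, Jun and Egr1, were neither above nor below.

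Genes of the amino acid and unfolded protein responses went in both directions, 7 above (26.9%) and 6 below (23.1%) of 26. Slc3a2, the heavy chain of amino acid exchangers, was at 14.11, 14.15, 14.29 and 14.09 at P4 and at 12.19 to 12.32 on all 6 flanking arrays, 3.88-fold above E18 and 3.73-fold above P10. Ddit4, an inhibitor of the mTORC1 kinase, was 3.15-fold and 4.12-fold above. Sesn2, another inhibitor of that kinase, was 4.47-fold and 2.98-fold above. Gdf15, a secreted stress hormone, was at 8.60, 8.18, 8.32 and 8.20 against 4.88 to 5.35 at E18 and 6.43 to 7.02 at P10. Below were Chac1, which degrades glutathione, at 6.06 to 6.25 against 8.00 to 8.12 and 7.49 to 7.86, and the stress-induced Nupr1, 2.57-fold and 1.79-fold lower. Herpud1, which serves degradation of misfolded proteins, was 1.65-fold and 2.30-fold below. Atf5 was 1.55-fold and 1.19-fold below, a call lost under both scalings of the scanner signal.

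Fat synthesis was at its low point at P4. Of 22 measured genes of fatty acid and triglyceride synthesis, 11 were below all 6 flanking arrays and 2 above (9.09%), and the median difference was -0.75. Scd1, the stearoyl-CoA desaturase, was at 11.67, 11.66, 11.61 and 11.71 at P4. It was at 14.72, 14.71 and 14.71 at E18 and at 12.97, 13.14 and 13.07 at P10. Scd1 was 8.29-fold below E18 (log2 -3.05 ± 0.06, limma adjusted p = 2.1e-13) and 2.63-fold below P10 (log2 -1.40 ± 0.06, limma adjusted p = 2.6e-10), and it reached 17.30 and 17.82 at 4W and 8W. Acacb, the acetyl-CoA carboxylase that controls entry of fatty acids into mitochondria, was at 12.74, 12.75, 12.86 and 12.69 at P4 against 14.58 to 14.60 at E18 and 14.44 to 14.54 at P10. Thrsp, a lipogenic nuclear protein, was 2.40-fold and 2.81-fold below. Lpin1, a phosphatidate phosphatase, was 2.91-fold and 2.15-fold below. Fasn, the fatty acid synthase, was at 7.70, 7.42, 7.74 and 7.54 at P4, 11.1-fold below E18 but only 1.56-fold below P10, where it was at 8.39, 8.23 and 8.12. With the flanks fitted as 1 group, Fasn lost its call. Cholesterol synthesis did not share the low point: of 19 measured genes 2 were above (10.5%) and 1 below (5.26%).

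**Figure D2:**
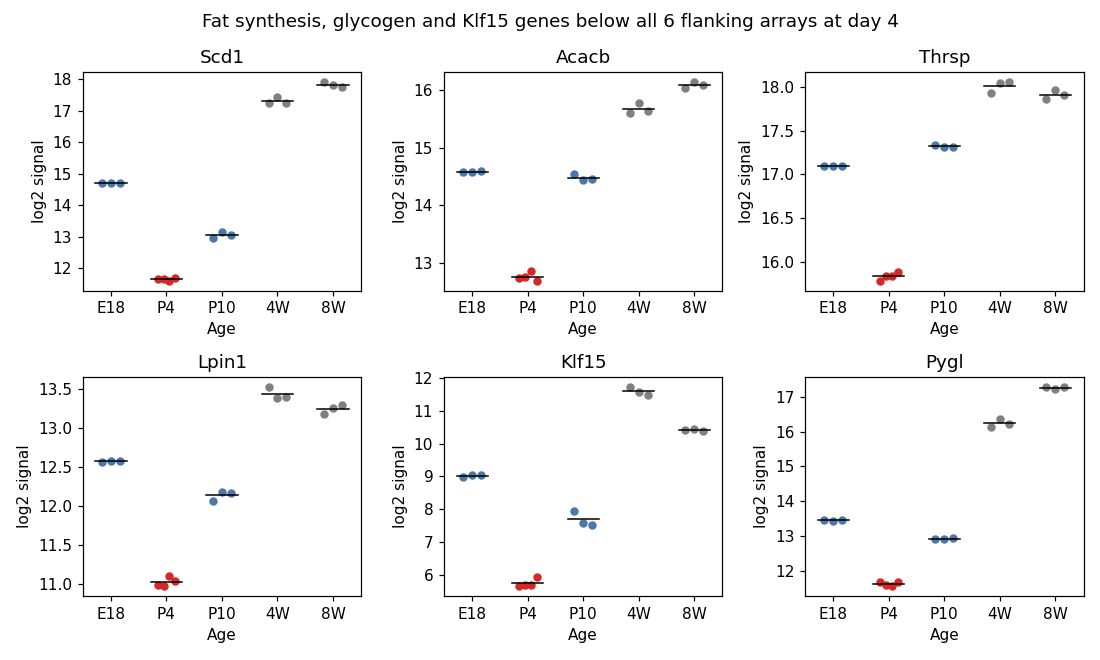
Log2 signal of 6 genes (vertical axis) on each array by age (horizontal axis), with P4 in red, E18 and P10 in blue, 4W and 8W in grey and a bar at each mean. The P4 points are the lowest in every panel and the 4W and 8W points the highest, with Klf15 at 5.67 to 5.94 on the P4 arrays.

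Carbohydrate genes were lower as well, by less. Of 21 genes of glycolysis and glucose uptake 7 were below (33.3%) and 1 above (4.76%), and 3 were below under median scaling. Pygl, a glycogen phosphorylase, was at 11.68, 11.59, 11.57 and 11.67 at P4 against 13.43 to 13.46 at E18 and 12.91 to 12.94 at P10, 3.54-fold and 2.46-fold lower. Aldoc, an aldolase, was 7.68-fold below E18 and 1.88-fold below P10. Pkm, the pyruvate kinase gene, was 1.55-fold and 1.51-fold below, and Eno1, an enolase, 1.33-fold and 1.41-fold, a call lost under median scaling.

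The storage side of lipid metabolism did not follow fat synthesis. Of 22 genes of lipid uptake, lipolysis and lipid droplets 4 were above (18.2%) and 2 below (9.09%). The above genes were Mfsd2a and the droplet coat proteins Plin1, Plin2 and Plin4. Plin4 was at 16.53, 16.52, 16.49 and 16.51 at P4 against 15.33 to 15.37 at E18 and 15.40 to 15.50 at P10, 2.24-fold and 2.08-fold higher. Plin2 was 1.98-fold above E18 and 1.29-fold above P10. Plin1 was 1.79-fold above E18 but 1.12-fold above P10, and its call was lost under median scaling and with the flanks as 1 group. Lipe, the hormone-sensitive lipase, was 1.30-fold and 1.21-fold below, a call lost under both scalings of the scanner signal.

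Genes of fat burning lay between the flanks as a list. For the 26 genes of fatty acid oxidation and ketone metabolism, the median difference was 0.08 for P4 minus E18 and -0.41 for P4 minus P10. Of these, 7 were below all 6 flanking arrays (26.9%), 2 above (7.69%) and 17 on neither side. None was below under median scaling and 3 were under 75th percentile scaling. The 4 farthest below were Hadha, Acadm, Acads and Etfa, enzymes of mitochondrial beta-oxidation and its electron transfer. Hadha was 1.58-fold and 1.44-fold below, with P4 replicate 3 at 13.56 and the others at 14.02 to 14.15. Etfa was 1.21-fold and 1.27-fold below, Acads 1.19-fold and 1.40-fold, and Acadm 1.17-fold and 1.45-fold. None of these 4 calls held under median scaling. Cpt1b, the muscle-type carnitine palmitoyltransferase that brown fat also uses, lay between the flanks at 1.15-fold above E18 and 1.34-fold below P10, and so did the kinase gene Pdk4, 2.72-fold above E18 and 1.43-fold below P10.

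Subunits of the respiratory chain were lower by small amounts, and their calls depended on the scaling. Of 44 autosomal subunits 20 were below (45.5%) and none above, with a median difference of -0.26, and a positive difference in 1 of 44. Under 75th percentile scaling 11 were below and under median scaling 1, with medians of -0.20 and -0.17. The 4 farthest below belonged to complex I. Ndufs8 was at 14.51, 14.49, 14.56 and 14.49 at P4 against 14.93 to 15.00 at E18 and 14.98 to 15.18 at P10, 1.36-fold and 1.47-fold lower. Ndufs4 was 1.31-fold and 1.34-fold below, Ndufa9 1.31-fold and 1.35-fold, and Ndufb5 1.30-fold and 1.34-fold. Ppargc1a, a coactivator of these genes, had its highest level on the same arrays.

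Adipogenic transcription factors were below the flanks in larger number than the background. Of 24 nuclear receptors and adipogenic factors 12 were below and 2 above (8.33%), with a median difference of -0.29. Under median scaling 4 were below and none above. Klf15, a Krüppel-like factor of fat, muscle and liver metabolism, had the largest difference of the list. It was at 5.67, 5.70, 5.69 and 5.94 at P4, at 8.99, 9.03 and 9.04 at E18 and at 7.96, 7.59 and 7.53 at P10. It was 9.66-fold below E18 (log2 -3.27 ± 0.10, limma adjusted p = 1.8e-11) and 3.84-fold below P10 (log2 -1.94 ± 0.10, limma adjusted p = 2.4e-09). With normexp Klf15 kept its call but went from 6.09-fold to 3.41-fold below the mean of both flanks. Stat5a, a transcription factor of growth hormone and prolactin signalling, was 1.71-fold and 2.26-fold below. Ebf3 was 1.42-fold and 1.74-fold below, and Cebpa 1.57-fold and 1.56-fold. Pparg, the master regulator of adipocyte differentiation, was at 15.10 to 15.14 against 15.45 to 15.60 on the flanking arrays, a 1.29-fold and 1.35-fold difference that was lost under median scaling.

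Markers of adipocytes themselves were mostly on neither side. Of 22, 6 were below (27.3%) and 2 above (9.09%), and the log2 of their summed signal was 21.29 to 21.33 at E18, 21.15 to 21.20 at P4 and 21.35 to 21.43 at P10. Cfd, the secreted adipsin, was 1.75-fold and 1.60-fold below. Adipoq, which encodes adiponectin, was at 16.95 to 17.09 at P4 against 16.93 at E18 on all 3 arrays and 16.71 to 16.80 at P10. It passed only against P10, and Lep, the leptin gene, only against P10 as a lower level. In whole tissue, fewer cells of a type and less RNA per cell cannot be told apart.

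Interferon response genes were below both flanks almost as a block. Of 22 measured members 19 were below all 6 flanking arrays and past both tests (86.4%, against 15.0% of all genes), none was above, and the median difference was -1.01. Under 75th percentile scaling 17 and under median scaling 15 were below. Ifi44, an interferon-induced gene, was at 7.14, 6.89, 7.23 and 7.01 at P4. At E18 it was at 8.98, 9.16 and 9.13 and at P10 at 8.62, 8.96 and 8.78, so P4 was 4.06-fold below E18 (log2 -2.02 ± 0.11, limma adjusted p = 6e-09) and 3.29-fold below P10 (log2 -1.72 ± 0.11, limma adjusted p = 2.7e-08). Rtp4 was at 10.78 to 10.89 at P4 and at 12.21 to 12.47 on all flanking arrays, 2.98-fold and 2.65-fold lower. Usp18, which removes the ubiquitin-like Isg15 from proteins, was 2.59-fold and 2.85-fold below. Oasl2, of the oligoadenylate synthetase family, was 2.29-fold and 2.86-fold below. Gbp2 and Cxcl10 were among the measured members not called.

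Promoters of 3 members are shown because most matched members of the list hold a known element. The interferon-stimulated response element, searched as GAAA, 2 bases of any kind and GAAA on both strands, was in 12 of the 17 list members with a RefSeq window (70.6%), in 3.90% of all matched genes and in 4.63% of genes below. The sequences give the 250 bases before the start on GRCm38.p6, 5′ to 3′, for Isg15 (a ubiquitin-like modifier, chr4:156200819-156201068, minus strand), Ifit1 (an RNA-binding antiviral protein, chr19:34640639-34640888, plus strand) and Gbp3 (a guanylate-binding protein, chr3:142559794-142560043, plus strand). Capitals mark matches on either strand, merged where they overlap.
Isg15: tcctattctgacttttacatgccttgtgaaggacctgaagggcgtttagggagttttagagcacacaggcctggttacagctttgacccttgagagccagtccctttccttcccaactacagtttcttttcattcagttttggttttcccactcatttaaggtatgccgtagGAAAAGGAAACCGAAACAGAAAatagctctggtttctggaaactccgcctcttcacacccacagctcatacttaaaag
Ifit1: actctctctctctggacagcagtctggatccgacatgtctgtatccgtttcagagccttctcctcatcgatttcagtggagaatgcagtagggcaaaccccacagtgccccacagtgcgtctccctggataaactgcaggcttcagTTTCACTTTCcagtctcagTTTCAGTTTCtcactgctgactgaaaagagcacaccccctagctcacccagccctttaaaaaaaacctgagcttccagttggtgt
Gbp3: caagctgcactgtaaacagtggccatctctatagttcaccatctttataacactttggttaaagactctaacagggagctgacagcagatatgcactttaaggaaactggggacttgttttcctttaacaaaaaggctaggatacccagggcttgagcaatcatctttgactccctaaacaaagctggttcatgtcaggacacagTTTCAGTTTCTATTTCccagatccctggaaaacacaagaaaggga
The list was chosen for induction by interferon, whose known element this is, so its share there is no finding about P4. Isg15, Ifit1 and Gbp3 were all below at P4.

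Other immune lists did not share the pattern. Of 18 antigen presentation genes 1 was below (5.56%) and none above, and the list followed age: its median difference was 0.48 for P4 minus E18 and -1.09 for P4 minus P10. Of 16 lymphocyte markers 1 was below (6.25%), with a log2 summed signal of 12.97 to 13.15 at E18, 12.91 to 13.20 at P4 and 13.59 to 13.83 at P10. Cd3g, Cd8a, Il7r and Klrb1c were not well above background on any P4 array. Of 14 macrophage markers 2 were above (14.3%) and 1 below (7.14%), with sums of 15.22 to 15.26, 15.12 to 15.59 and 15.04 to 15.42. The part of these cells in the interferon result was not tested. With each interferon gene centred on its mean over the 10 E18, P4 and P10 arrays, the median of the list was 0.21 to 0.22 at E18, -0.69 to -0.56 at P4 and 0.57 to 0.70 at P10. It was -0.26 to -0.16 at 4W and 0.10 to 0.20 at 8W, so the P4 arrays were the lowest of all ages.

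**Figure D3:**
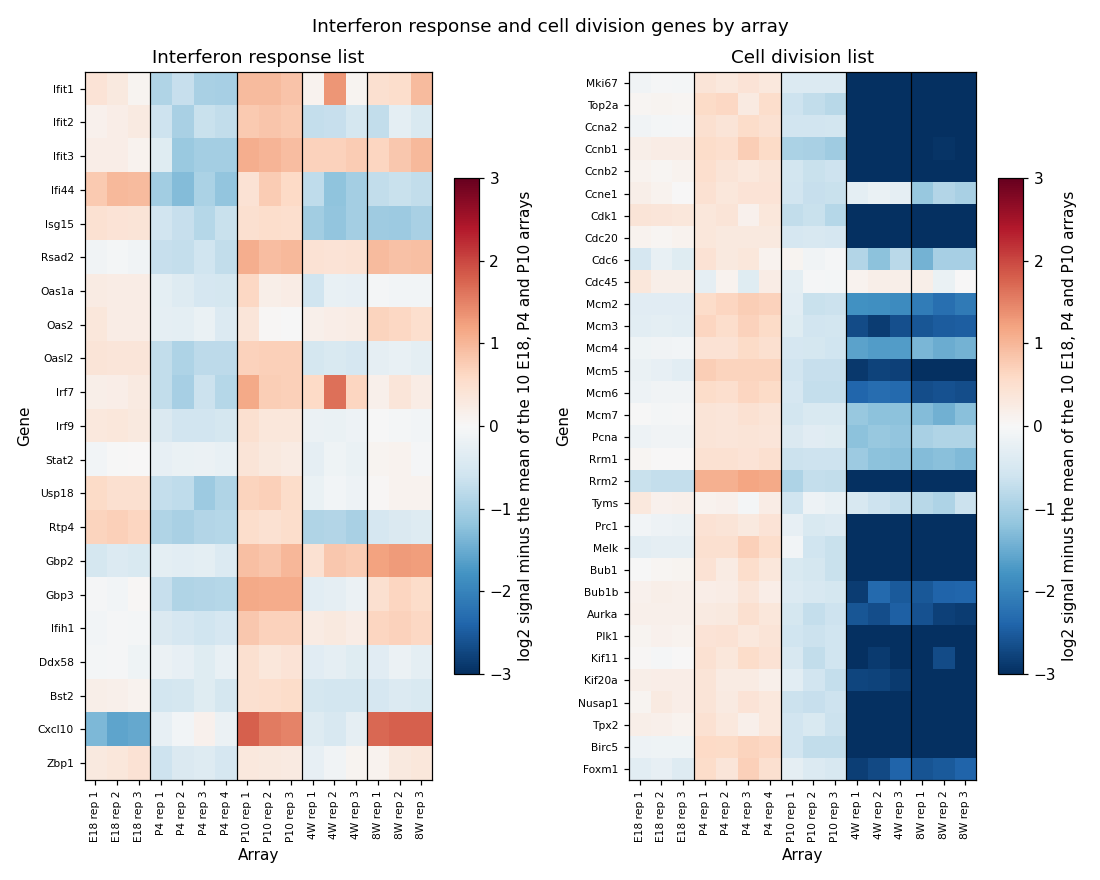
Log2 signal minus the mean of the 10 E18, P4 and P10 arrays (colour, limited to 3 either way) for interferon response genes (left) and cell division genes (right), with genes as rows and the 16 arrays as columns, and lines between ages. The P4 columns are blue for 19 interferon genes that lie below both flanks, and cell division genes are mostly red at P4 and dark blue at 4W and 8W.

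Cell division genes had their high point at P4. Of 32 measured members 20 were above all 6 flanking arrays (62.5%, against 14.5% of all genes) and none below, with a median difference of 0.66, 0.42 from E18 and 1.00 from P10. Under median scaling 17 were above. Rrm2, a subunit of ribonucleotide reductase, was at 12.96, 12.96, 13.08 and 13.04 at P4. At E18 it was at 11.22, 11.19 and 11.19 and at P10 at 10.96, 11.18 and 11.16. Rrm2 was 3.51-fold above E18 (log2 1.81 ± 0.06, limma adjusted p = 3.7e-11) and 3.76-fold above P10 (log2 1.91 ± 0.06, limma adjusted p = 2.5e-11). The replicative helicase subunits Mcm2, Mcm3 and Mcm5 followed. Mcm2 was 1.99-fold and 2.28-fold above, Mcm5 1.92-fold and 2.52-fold, and Mcm3 1.88-fold and 2.15-fold. Mki67, a marker of dividing cells, was at 13.29, 13.22, 13.31 and 13.22 at P4, 1.34-fold above E18 and 1.71-fold above P10. At 4W and 8W its means were 7.87 and 7.17. Which cells divide cannot be read from whole tissue.

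Genes of the extracellular matrix were above in like proportion. Of 25 measured 14 were above (56.0%) and none below, with a median difference of 0.63, and 13 were above under median scaling. Mfap5, a microfibril protein, was at 13.14, 13.12, 13.32 and 13.13 at P4 against 12.23 to 12.30 at E18 and 11.85 to 11.99 at P10, 1.89-fold and 2.44-fold higher. Lox, which crosslinks collagen and elastin, was at 8.82 on P4 replicate 1 and at 7.87 to 8.00 on the others, 1.78-fold and 2.22-fold above. Fibronectin (Fn1) was at 13.77 to 13.82 against 12.89 to 13.12 on the flanking arrays. Fibrillin 1 (Fbn1) was 1.62-fold and 1.86-fold above. Of 13 markers of fibroblast progenitors 3 were above (23.1%) and none below: Mfap5, Dpt, which encodes dermatopontin, at 1.48-fold and 2.08-fold, and the semaphorin Sema3c at 1.29-fold and 3.29-fold. The Sema3c call was lost with averaged probes. The log2 summed signal of these markers was 15.00 to 15.05 at E18, 15.42 to 15.64 at P4 and 15.87 to 16.03 at P10. Their part in the matrix result was not tested.

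Imprinted growth genes had a few high points besides Nnat. Of 19 measured 4 were above (21.1%) and 2 below (10.5%). Peg3 was at 12.39, 12.59, 12.59 and 12.62 at P4, at 10.75, 10.77 and 10.68 at E18 and at 9.38, 10.33 and 10.50 at P10, 3.52-fold and 5.58-fold higher. Magel2, of the Prader-Willi region, was 1.87-fold and 2.33-fold above, and Zdbf2 1.82-fold and 6.16-fold. The best-known members followed age instead. Dlk1, a preadipocyte factor, was at 16.59 to 16.67 at E18, 16.20 to 16.38 at P4 and 14.48 to 14.52 at P10. Igf2, the fetal growth factor, was at 12.05 to 12.09, 11.63 to 11.75 and 9.32 to 10.28.

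Growth factor and insulin-like signalling were close to the background in both directions, with 4 of 28 above (14.3%) and 5 below (17.9%). Irs2, an insulin receptor substrate, was at 14.60, 14.57, 14.56 and 14.55 at P4 against 12.93 to 12.97 at E18 and 13.23 to 13.42 at P10, 3.07-fold and 2.34-fold higher. The insulin receptor gene Insr went the other way, 2.21-fold and 1.54-fold below. Vegfa, which drives vessel growth, was 1.33-fold and 1.81-fold below. Igfbp3 was 3.63-fold below E18 and 1.24-fold below P10, and Angpt1, a ligand of Tie2, 1.35-fold and 1.13-fold. Pdgfb was 2.53-fold above E18 and 1.28-fold above P10. Pdgfa was only 1.08-fold and 1.1-fold above, and its call was lost under most alternatives. The calls of Igfbp3, Angpt1 and Pdgfb were lost under median scaling.

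Genes of the circadian clock and the glucocorticoid response, described as 1 list of 23, were close to the background, with 5 above (21.7%), 4 below (17.4%) and 14 on neither side. Per2 was at 9.35, 8.68, 8.05 and 8.26 at P4 against 7.10 to 7.33 at E18 and 7.03 to 7.24 at P10, 2.55-fold and 2.70-fold higher, with a wider spread between P4 arrays than most genes named here. Dbp, a clock output factor, was 1.49-fold and 2.64-fold below. The repressors Nr1d1 and Nr1d2 were 1.46-fold and 1.31-fold below E18, and 3.33-fold and 1.94-fold below P10. Per3 was 1.27-fold and 3.00-fold below. Of the glucocorticoid-responsive members, Sgk1, a kinase, was 2.88-fold and 1.37-fold above and the metallothionein Mt2 1.85-fold and 5.34-fold. Clock was 1.65-fold and 1.25-fold above. The calls of Clock, Nr1d2 and Per3 were lost under median scaling. The labels give no hour of sampling.

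Of the vessel lists, endothelial genes were partly below and contractile smooth muscle genes partly above. Of 18 endothelial markers 5 were below (27.8%) and none above, and the log2 summed signal was 17.22 to 17.25 at E18, 17.48 to 17.54 at P4 and 18.18 to 18.32 at P10, so the sum followed age. Aplnr, the apelin receptor, was at 9.49 or lower on all P4 arrays, against 10.80 to 10.90 at E18 and 12.06 to 12.41 at P10, 3.21-fold below E18 and 8.18-fold below P10. Tie1, an endothelial receptor kinase, was 1.49-fold and 3.02-fold below. Emcn was 1.42-fold and 2.33-fold below, a call lost under median scaling, and Esam 1.40-fold and 2.06-fold. Of 11 smooth muscle and pericyte markers 4 were above (36.4%) and 1 below (9.09%). The list did not rise as a whole: its median difference was -0.09, and 5 of the 11 had a positive difference. Its log2 summed signal was 14.64 to 14.69 at E18, 15.35 to 15.43 at P4 and 15.26 to 15.35 at P10. The 4 above were contractile: Cnn1, or calponin, at 11.78, 11.70, 11.92 and 11.76 against 8.69 to 8.73 at E18 and 9.30 to 9.41 at P10, and Acta2, Tagln and Myh11. Cnn1 was 8.47-fold and 5.46-fold above, Acta2 2.38-fold and 1.84-fold, Tagln 1.95-fold and 1.81-fold, and Myh11 1.93-fold and 1.63-fold.

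From E18 to P10, markers of blood-forming, liver and surface tissue fell after E18 or changed little. Neutrophil markers had a log2 summed signal of 15.25 to 15.29 at E18, 12.85 to 12.98 at P4 and 12.91 to 13.04 at P10, with 1 of 12 below all 6. Mast cell markers were at 15.02 to 15.05, 12.14 to 12.31 and 12.28 to 12.30, with 1 of 8 below. Liver markers were at 15.76 to 15.81, 13.46 to 13.62 and 13.37 to 13.39, with 1 of 8 below. Their sum was higher again later, at 15.24 to 15.35 at 4W and 14.26 to 14.30 at 8W. Afp, Fgb and Mup1 were not well above background on any P4 array. Of erythroid, keratinocyte and Schwann cell or neuronal markers 1 of 9, 1 of 7 and 1 of 10 were above. None of the 6 cartilage and bone markers or the 3 mesothelial markers was outside both flanks.

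**Figure D4:**
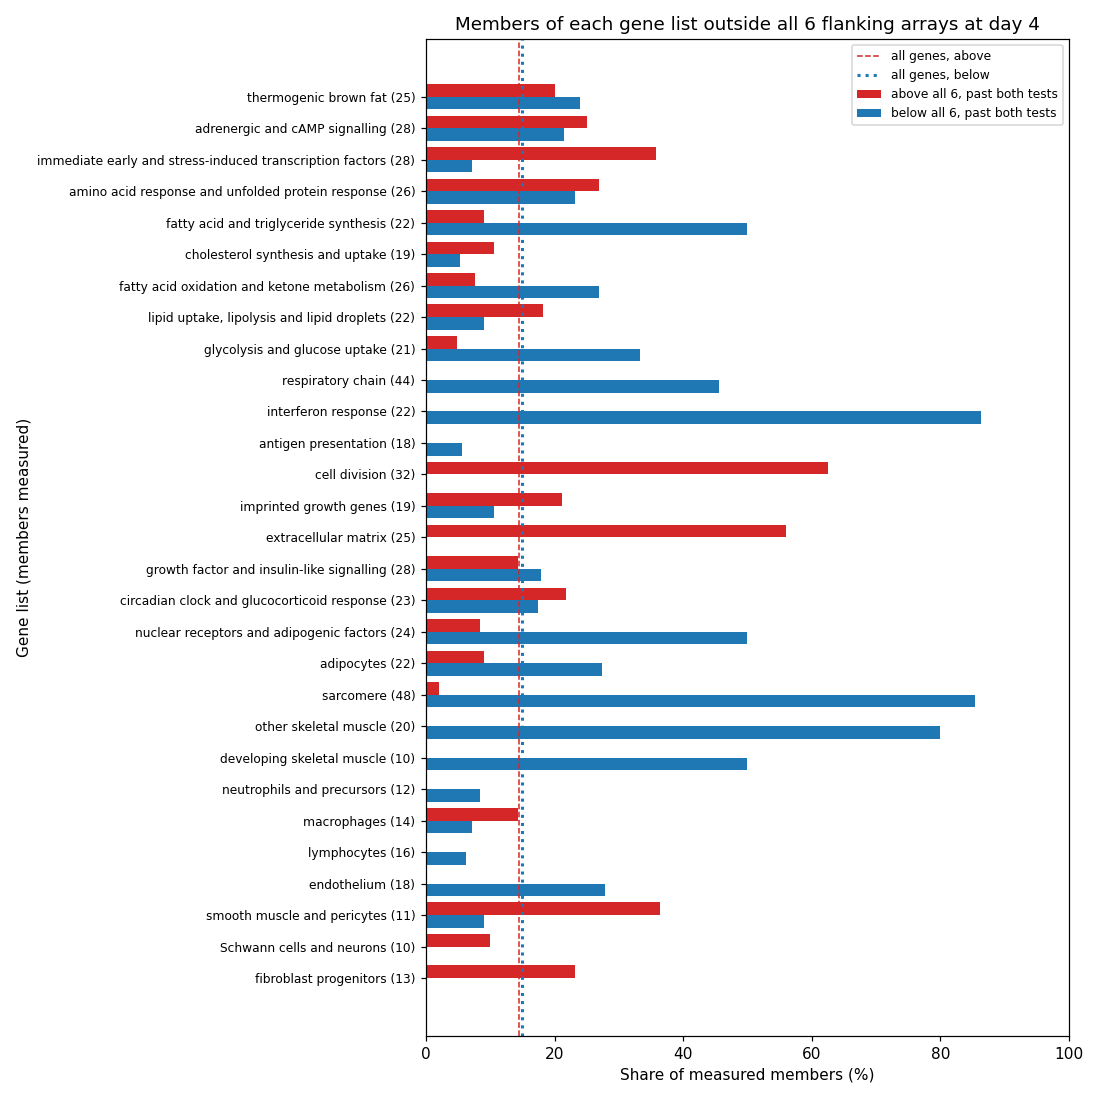
Share of measured members (horizontal axis, percent) above all 6 flanking arrays (red bars) and below (blue bars) for each gene list with at least 10 measured members (vertical axis, number measured in brackets). The lines mark the shares over all genes, 14.5% above and 15.0% below. Interferon, sarcomere and other skeletal muscle genes have the longest blue bars, and cell division and matrix genes the longest red ones.

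Sarcomere genes, counted apart, were below both flanks in nearly the whole list. Of 48 autosomal members 41 were below (85.4%) and 1 above (2.08%), with a median difference of -3.26. The log2 summed signal was 18.03 to 18.05 at E18, 16.16 to 16.20 at P4, 17.89 to 17.95 at P10, 18.36 to 18.38 at 4W and 15.68 to 15.72 at 8W. The P4 and 8W arrays thus stood below the other ages. Myh7, the slow myosin heavy chain, was at 6.60, 6.85, 7.07 and 6.98 at P4 against 12.16 to 12.23 at E18 and 11.89 to 12.03 at P10. It was 39.6-fold below E18 (log2 -5.31 ± 0.14, limma adjusted p = 5.5e-12) and 34.2-fold below P10 (log2 -5.10 ± 0.14, limma adjusted p = 1.2e-11). The perinatal myosin Myh8 was 20.9-fold and 23.7-fold below, the Z-disc gene Myot 30.9-fold and 25.3-fold, and the slow troponin Tnni1 at least 16.8-fold and at least 13.9-fold. Tnni1 and 8 other members, such as Actn3, Casq1 and Mylpf, were not well above background on any P4 array. Tpm3, a tropomyosin made in many cell types, was the member above, by 1.80-fold from E18 and 1.1-fold from P10. Another probe of Tpm3 was below, and the mean of its probes was 3.13-fold below the mean of both flanks (log2 -1.65).

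**Figure D5:**
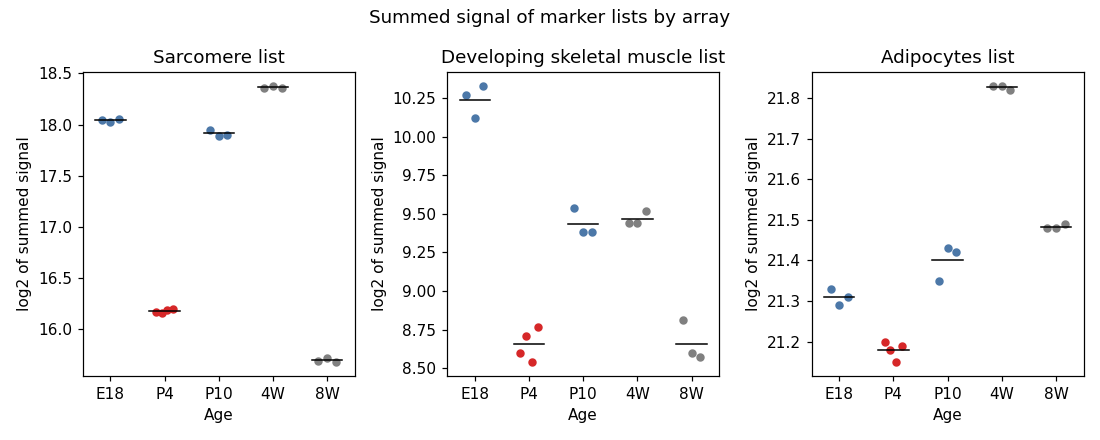
Log2 of the summed signal (vertical axis) of the sarcomere, developing skeletal muscle and adipocyte lists on each array by age (horizontal axis), with a bar at each mean. The sarcomere sum is at 16.16 to 16.20 at P4 and 15.68 to 15.72 at 8W, and at 17.89 or more at the other ages.

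Most muscle markers outside the sarcomere list moved the same way. Of 20 other skeletal muscle markers 16 were below (80.0%) and none above, with a median difference of -2.82, and Ampd1, Asb5, Ckmt2 and Ryr1 were not well above background on any P4 array. A positive difference was seen in 3 of the 20. The log2 summed signal of this list changed little, unlike that of the sarcomere list. It was 18.63 to 18.66 at E18, 18.46 to 18.58 at P4 and 18.48 to 18.73 at P10. Of 10 markers of developing muscle 5 were below: Myog, a myogenic factor, was at least 4.00-fold below E18 and at least 1.33-fold below P10, Myf6 at least 5.37-fold and at least 2.29-fold, the receptor subunit Chrna1 3.56-fold and 2.51-fold, and the cadherin Cdh15 4.94-fold and 1.88-fold. The 12 genes farthest below both flanks outside the sarcomere list were also muscle-associated or followed muscle: Ckmt2, Fitm1, Ckm, Ryr1, Art1, Smtnl1, Apobec2, Cox6a2, Ampd1, Mb, Klhl31 and 2310002L09Rik. Ckmt2, the mitochondrial creatine kinase of muscle, was at 4.09, 4.10, 3.30 and 3.21 at P4 against 10.49 to 10.50 at E18 and 10.14 to 10.41 at P10. That is at least 52.2-fold below E18 and at least 43.6-fold below P10. Ckm, the cytosolic muscle creatine kinase, was 31.5-fold and 21.6-fold below, myoglobin (Mb) 20.9-fold and 11.3-fold, and the muscle cytochrome oxidase subunit Cox6a2 12.9-fold and 11.4-fold. With normexp the genes of this set with dim P4 signals were compressed in the same way, Ckmt2 to 14.1-fold and Fitm1 to 3.61-fold below the mean of both flanks.

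The 8 other genes of that set were close to background at P4. Fitm1, a protein of lipid droplet formation in muscle, was at least 9.95-fold below E18 and at least 9.57-fold below P10. Smtnl1 was at least 13.4-fold and at least 12.8-fold below, and Ryr1, the calcium release channel, at least 7.97-fold and at least 7.13-fold. Art1 was at least 9.39-fold and at least 8.43-fold below, Ampd1, the muscle AMP deaminase, at least 10.7-fold and at least 6.62-fold, and Klhl31 at least 7.16-fold and at least 6.67-fold. Apobec2 was at least 5.86-fold and at least 4.48-fold below, and 2310002L09Rik at least 10.3-fold and at least 3.76-fold. Genes that followed the mean of the sarcomere genes over the 16 arrays (a correlation above 0.8, over arrays that share slide and age) made up 201 of all 15650 genes (1.28%). They made up 159 of the 2346 genes below (6.78%), 74 of the 367 below by at least 2-fold (20.2%), all 12 farthest below, and none of the 2268 above. The sarcomere mean is itself low at P4. Genes chosen as low at P4 therefore reach this correlation more readily, and genes chosen as high at P4 hardly can. These shares thus follow partly from the choice of genes and are no separate result. The muscle content of a sample and the age of the mice cannot be told apart in these arrays.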

How the data were processed

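The values are the deposited series matrix, on the log2 scale. A check found the sorted columns identical and the ranks within 1 of those of the processed signal, so the values are quantile normalized. No source used here says how the authors did this. The intensity values of the scanner files served for background flags and alternatives, and per the file headers they are background subtracted. Per the submitters' processing notes the software was Agilent Feature Extraction 11.0.1.1, and the file headers name 11.5.1.1.

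Of 55681 probes, 27656 had a symbol through RefSeq, for 20972 symbols. Probes well above background on at least 3 of the 10 arrays were kept, and the kept probe with the highest mean over the 10 arrays stood for its gene, which gave 16289 genes. The fit (limma 3.58.1 in R 4.3.3) used all 16 arrays with age as the only term, so that the ages share an estimate of the spread. Tests were two-sided and adjusted over all genes. It was tested on simulated data. P4 minus E18 and P4 minus P10 share the P4 arrays, so the count of genes past both describes the rule and is no test of an overlap. Gene lists (35 in all) were described by counts and medians. The members and lists were chosen with earlier results of these data known.

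Named are a fixed panel, the 12 genes farthest from both flanks in each direction, the 4 farthest members of a list with at least 3 in that direction, and 4 sarcomere genes in each direction. Genes named outside this rule, in the closing section, in counts, lists of markers and promoters, were chosen after their values were seen. Values of a few genes are not reported here, although the counts of their lists include them. Alternatives were scaling by the 75th percentile or the median, normexp with an offset of 50, other filters, averaged probes, slide and replicate blocks, slide 1 alone, fewer arrays, the flanks as 1 group, a trended prior, and each of 10 arrays left out. Leaving out genes that follow sarcomere genes was chosen after seeing the data. Promoters and coordinates are RefSeq's on GRCm38.p6 and were used only by gene symbol.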

Additional observations from a re-analysis of the deposited data

Results flagged for a closer look

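Of 136 named genes, 9 had a P4 array far from the other P4 arrays by Dixon's criterion for 4 samples, which chance alone gives for about 1 gene in 20. P4 replicate 1, the P4 array on the other slide, stood apart for Peg3 (12.39, log2 signal) and Lox (8.82). P4 replicate 2 did so for Kcnk3 (12.79) and Myf6 (5.14), replicate 3 for Nupr1 (12.2) and Mfap5 (13.32), and replicate 4 for Apobec2 (2.81), Klf15 (5.94) and Myog (3.32). For Kcnk3 and Apobec2 the P4 arrays spanned very small ranges, 12.79 to 12.80 and 2.81 to 2.88. Each of these 9 genes was still called with that array left out.

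Probes without a gene symbol entered no gene result. Of 16486 kept ones, 1176 (7.13%) were above all 6 flanking arrays and past both limma tests, and 920 (5.58%) were below. These shares are lower than the 14.5% above and 15.0% below among genes. At least 2-fold from both ages were 175 above (1.06%) and 202 below (1.23%), against 1.38% and 2.35% of genes. The probes farthest from both flanks in either direction were these. Both of the farthest above lie, per the file headers' annotation, in the same interval, chr17:8718223-8949898 on mm9, and were at 7.27 to 7.63 on the P4 arrays and at no more than 3.75 on a flanking array. The farthest below, in chr3:137742666-137744470 on mm9, was at 2.71 to 3.50 at P4 and at 7.36 to 7.76 on the flanking arrays, and like muscle genes it was low again at 8W (2.73 to 2.77) and not at 4W (7.61 to 7.69).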

How the results depend on the processing

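Counts of genes moved by more than 1.5 times under 2 alternatives. With median scaling 1153 genes were above all 6 flanking arrays and past both tests, 1176 were below, and 2982 were lower than the mean of both flanks. With the flanks as 1 group on 10 arrays, 2667 genes were higher than the flanking mean and 2745 lower, since the difference between E18 and P10 then counts as spread. The cause of the loss under median scaling was not tested. Leaving out each of the 10 arrays gave 2130 to 2443 genes above, 2226 to 2473 below, 3920 to 4284 higher and 4480 to 4807 lower. With only slide 1 arrays 2586 were above and 2603 below, and with a slide block 2236 and 2353. No value within the other slide exists, since it holds no E18 array. With the replicate number as a block 2125 genes were above, 2195 below, 3889 higher and 4432 lower. The deviations of same-numbered arrays of different ages correlated from -0.05 to 0.28, and those of differently numbered arrays from -0.19 to 0.11. The 2 highest were P4 and P10 replicates 1 (0.28) and replicates 2 (0.13). Both replicates 1 are also on the other slide, so whether the numbers pair the samples cannot be told. Of 136 named genes, 53 were called above and 72 below. Of these called genes, 29 lost their call under at least 1 alternative, 26 of them under median scaling. A named gene that a filter left out was not counted as a loss. With probes above background on all 10 arrays, 113 of the 136 named genes remained. Among named genes with a call, the difference of Tpm3 reversed with averaged probes (log2 -1.65). A change of sign was not counted for genes without a call. Reversed as well were 2 list medians: keratinocytes, at 0.16, with averaged probes (-0.0588), and erythroid cells, at -0.38, when a probe had to be above background on each of the 10 arrays (0.0672). The difference from the flanking mean moved by more than 1.5 times for 29 named genes with a call under normexp, all still called, and for 3 with averaged probes (Prmt6, Klhl31 and Tpm3). Among those under normexp, Gdf15 went from 5.32-fold to 2.76-fold and Zdbf2 from 3.35-fold to 1.73-fold. Of 1334 called genes with several kept probes, 23 had a probe called the other way. Signal limits the dimmest genes: where no array of an age was well above background, only a bound on the fold is given.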

Other observations

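The next counts are of genes picked by symbol prefix alone, meant to cover ribosome assembly and the ribosome itself. These gene groups were chosen after the values were seen, and no test was made. Of 43 measured genes whose symbols start with Nop, Nol, Noc, Utp, Rrp or Polr1, with Noct left out, 27 were above all 6 flanking arrays. Below were 2 (Nol4l and Nop10), and the median difference was 0.52. Over all genes 14.5% were above and 15.0% below. Nop58, a core protein of snoRNA particles, was at 12.85, 12.91, 12.83 and 12.99 at P4 against 11.15 to 11.20 at E18 and 11.01 to 11.15 at P10, 3.30-fold and 3.54-fold higher. Rrp1b, another nucleolar protein, was 2.98-fold above both ages. The nucleolar helicase Ddx21 was 4.48-fold above E18 and 3.94-fold above P10. Of 72 ribosomal protein genes (Rpl and Rps) 3 were above and 1 below, with a median of 0.14, and of 77 mitochondrial ones (Mrpl and Mrps) 2 were above and 10 below, with a median of -0.13.

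Further genes with large differences at P4 belonged to no list described above and were also chosen after their values were seen. Sik1, a kinase induced by cAMP, was at 10.81, 10.85, 10.90 and 10.89 at P4, 10.4-fold above E18 and 4.24-fold above P10. Noct, a clock-related phosphatase, was 11.2-fold and 3.38-fold above. Among genes of lipid handling, the fatty acid receptor Ffar4 was 6.92-fold and 4.97-fold above, Fitm2, of lipid droplet formation, 6.20-fold and 4.08-fold, and the acyl-CoA thioesterase Acot4 13.0-fold and 3.78-fold. Plaur, the urokinase receptor gene, was 5.74-fold and 2.95-fold higher, the matricellular genes Ccn2 3.97-fold and 3.84-fold and Thbs1 2.85-fold and 4.63-fold, and the receptor gene Tnfrsf12a 7.63-fold and 4.72-fold. Inhba, an activin subunit, was 5.26-fold and 4.10-fold above. Below were Trp53inp1, at 7.16 to 7.61 against 9.67 to 10.25 on the flanking arrays, the organic anion transporter Slco4a1, 4.99-fold below E18 and 23.3-fold below P10, and the chemokine receptor Cxcr4, not well above background at P4 and at least 3.05-fold below E18 and at least 3.19-fold below P10.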
